A study of Mus musculus with 6 samples.

Results

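The promoters of mouse genes named Zfp, for zinc finger protein, were compared in NIH/3T3 cells between 2 guide RNAs. A member was a protein-coding gene whose symbol is Zfp followed by a number and at most 1 letter, with a region of open chromatin centred within 1000 bp of its transcription start site (TSS). The region nearest to the TSS was taken for each gene. Zfp36 was left out because its product binds and destabilises mRNA. The rule gave 188 promoters among 63430 regions in all, and among 9440 promoters of protein-coding genes taken in the same way. The deposited table also spells some zinc finger genes Znf, and 88 promoters with such names fall outside the rule. Of these, 75 carry the Zfp spelling in the RefSeq table of the same genome build, so the members are those zinc finger genes for which the deposited table uses Zfp.

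Open chromatin was read out with ATAC-seq, where Tn5 transposase cuts accessible DNA and tags it. The cells were NIH/3T3, an established line of mouse embryonic fibroblasts, with a knock-in of CRISPR-Cas13d, an enzyme that cuts RNA under the direction of a guide. One group of 3 libraries was transfected with a guide RNA specific for the Actg1 mRNA, which encodes cytoplasmic gamma-actin, and the control group of 3 libraries with a guide specific for GFP. Both groups carried Cas13d and a guide, and the study asked what mRNA degradation contributes to transcriptional adaptation, in which decay of one mRNA is accompanied by altered transcription of related genes.

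Most Zfp genes encode nuclear proteins with arrays of zinc fingers, small loops held by a zinc ion that read DNA bases. Many also carry a KRAB domain, which recruits the corepressor Trim28 and through it histone methyltransferases and HP1 proteins, and this family is known for silencing transposable elements. Such genes arose by repeated tandem duplication, so close relatives stand side by side in clusters on several mouse chromosomes. A minority of the genes named Zfp have other roles, in RNA binding, ubiquitin transfer or the cytoskeleton.

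The libraries held an estimated 5675574 to 9528401 reads in regions. Signal is the deposited read count per region, normalized between libraries and rounded by the authors. Between GFP guide replicates 1 and 2 the difference was below the sampling noise (chi-square per region 0.987, p = 0.978), so they were averaged and counted as 1 sample, and tests set 2 GFP guide samples against 3 Actg1 guide samples. The other within-group pairs gave 1.04 to 1.12, close to counting error, and the labels do not state whether replicates were separate cultures, so p-values measure only the spread between these libraries. Of the fibroblast markers, 8 of 10 had a promoter region here, from Col3a1 at a mean signal of 28.2 to Vim at 937.5, and Col1a2, Pdgfrb and Twist1 were lower with the Actg1 guide (Twist1 not without GFP guide replicate 3, limma adjusted p = 0.0847). Markers of epithelium, endothelium, blood, skeletal muscle and pluripotent cells had 1 of 5, 0 of 4, 1 of 4, 0 of 3 and 0 of 3 promoter regions. The blood marker Cd68 had 56, 56 and 42 with the GFP guide and 112, 100 and 91 with the Actg1 guide. The part of these markers in the results below was not tested.

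Of the 188 Zfp promoters, 12 rose and 42 fell with the Actg1 guide, and 134 did not pass the test (limma, Benjamini-Hochberg adjusted p under 0.05 over 61327 regions). These were 6.38% and 22.3% of the members. Over all protein-coding promoters 12.4% were higher and 18.9% lower, together 31.3%, against 28.7% of the Zfp promoters. Over all regions of the genome 41.3% were called. The share of Zfp promoters called was thus near that of promoters at large, with fewer calls upward and slightly more downward. The median log2 fold change (Actg1 guide over GFP guide, on log2(signal + 1)) was -0.06 for the Zfp promoters and -0.03 for all protein-coding promoters. Under both other scalings of the libraries it was -0.04 for the Zfp promoters and -0.01 for all protein-coding promoters.

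The changes were small. In 48 of the 54 called promoters the log2 fold change was under 0.5 in size, and 1 promoter, that of Zfp119b, changed by more than 2-fold. The 6 libraries did not overlap between groups in 76 Zfp promoters or 40.4%, with the Actg1 guide above in 22 and below in 54. For all protein-coding promoters that share was 43.1%, with 17.3% above and 25.8% below. Among the called members, the libraries did not overlap in 10 of the 12 that rose and 37 of the 42 that fell. These counts rest on the same values as the calls and are not separate evidence for them. GFP guide replicate 3 was 1 of the 2 GFP guide samples in the test. Without it, the spread between GFP guide samples could not be measured. When GFP guide replicate 3 was left out and 1 GFP guide sample remained, 1 rise and 8 falls were called, at Zfp119b and at Zfp53, Zfp110, Zfp120, Zfp185, Zfp217, Zfp369, Zfp449 and Zfp760, and 8.8% of protein-coding promoters were called. The other 45 had adjusted p = 0.0564 to 0.49 and kept 45.9% to 134% of their log2 fold change.

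**Figure D1:**
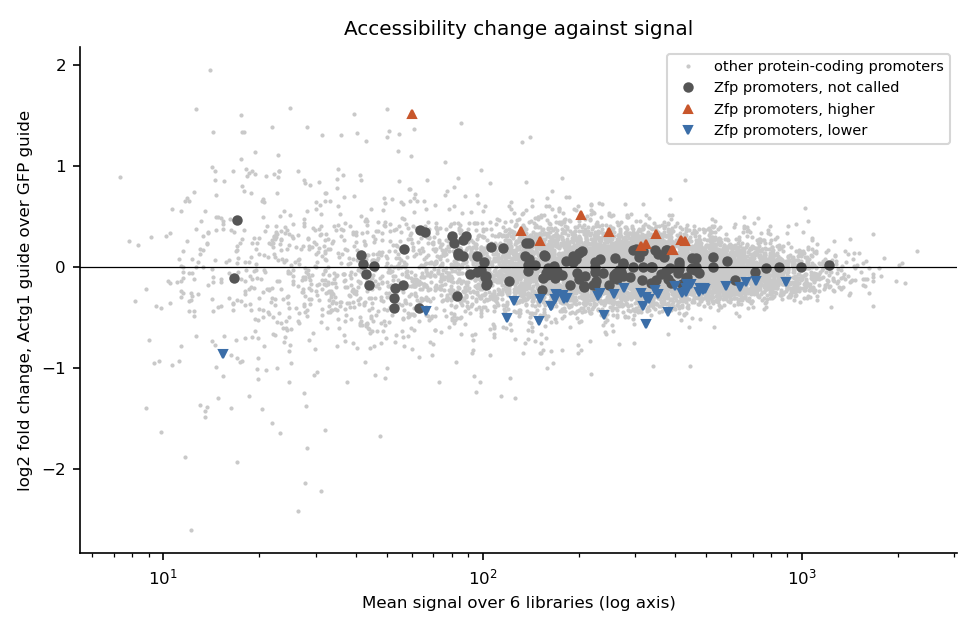
Log2 fold change (vertical axis) against the mean signal over the 6 libraries (horizontal log axis) for each protein-coding promoter; small light points are other genes, dark circles Zfp promoters that were not called, and triangles called Zfp promoters. Among the Zfp promoters, 12 triangles pointing up lie above 0 and 42 pointing down below it, and Zfp119b stands alone above 1.

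The members were also set out by signal. The Zfp promoters had a median mean signal of 239, other protein-coding promoters 286.5. Of 5 equal classes of promoters by signal, in class 4 5 Zfp promoters were higher and 14 lower of 47, against 243 and 384 of 1837 other promoters. In the highest class, 0 were higher and 5 lower of 14, against 247 and 571 of 1874. In the lowest class, 2 were higher and 4 lower of 41, against 178 and 222 of 1792 others. In class 2, with the most members, 2 or 3.85% were higher and 11 or 21.2% lower of 52, against 13.1% and 14% of the others. In class 3 the counts were 3 and 8 of 34, against 243 and 296 of 1856.

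Before the single genes, the sequences of 7 promoters are shown, because they bear on how alike these promoters are. They are those with the largest rise and the largest fall at high signal, and neighbours of each. The last 2 come from a cluster with a median log2 fold change below 0 and 1 with a median above 0. Each window runs from 250 bases before to 50 bases after the RefSeq start site (GRCm38.p6, the sequence of mm10), 5′ to 3′ on the strand of the gene. Capitals mark exact matches, on either strand, to the 9 transcription factor motifs given further on. These genes were chosen after their values had been seen. The first 3 are neighbours on chromosome 17: Zfp119b (chr17:55949451-55949750, minus strand), which rose, Zfp119a (chr17:55878904-55879203, minus), and Zfp959 (chr17:55891843-55892142, plus), which fell slightly.
Zfp119b: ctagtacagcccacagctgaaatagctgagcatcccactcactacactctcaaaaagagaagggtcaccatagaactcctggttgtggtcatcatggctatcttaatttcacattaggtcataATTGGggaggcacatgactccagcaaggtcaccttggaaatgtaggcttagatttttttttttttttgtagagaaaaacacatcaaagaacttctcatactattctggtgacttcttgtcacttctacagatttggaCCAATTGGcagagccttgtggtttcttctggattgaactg
Zfp119a: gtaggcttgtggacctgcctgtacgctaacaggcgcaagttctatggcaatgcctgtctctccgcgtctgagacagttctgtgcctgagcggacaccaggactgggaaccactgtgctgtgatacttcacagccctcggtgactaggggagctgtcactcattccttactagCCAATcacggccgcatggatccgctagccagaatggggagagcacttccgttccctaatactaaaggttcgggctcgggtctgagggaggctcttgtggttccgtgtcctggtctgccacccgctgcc
Zfp959: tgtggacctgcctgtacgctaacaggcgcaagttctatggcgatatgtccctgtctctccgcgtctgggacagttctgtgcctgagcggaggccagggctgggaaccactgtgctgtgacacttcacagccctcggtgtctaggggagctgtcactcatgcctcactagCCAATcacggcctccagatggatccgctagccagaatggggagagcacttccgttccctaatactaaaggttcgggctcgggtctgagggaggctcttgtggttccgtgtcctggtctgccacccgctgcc
The windows of Zfp119a and Zfp959 were identical at 284 of 300 positions, or 94.7%, in a global alignment, the closest pair among 356 pairs of members within a cluster. The Zfp119b window had 41.3% G+C and a CpG observed over expected ratio of 0, while those of Zfp119a and Zfp959 had 58% and 59.7% G+C and ratios of 0.555 and 0.524.
The next 2 are neighbours on chromosome 2 that both fell, Zfp120 (chr2:150136629-150136928, minus strand) and Zfp937 (chr2:150217849-150218148, plus strand), identical at 224 of 300 positions or 74.7%.
Zfp120: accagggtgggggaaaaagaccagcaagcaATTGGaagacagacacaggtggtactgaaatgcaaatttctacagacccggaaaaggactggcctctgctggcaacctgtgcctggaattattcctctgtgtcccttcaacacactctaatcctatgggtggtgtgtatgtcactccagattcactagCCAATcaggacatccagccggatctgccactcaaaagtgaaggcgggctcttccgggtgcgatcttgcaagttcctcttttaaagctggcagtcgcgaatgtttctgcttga
Zfp937: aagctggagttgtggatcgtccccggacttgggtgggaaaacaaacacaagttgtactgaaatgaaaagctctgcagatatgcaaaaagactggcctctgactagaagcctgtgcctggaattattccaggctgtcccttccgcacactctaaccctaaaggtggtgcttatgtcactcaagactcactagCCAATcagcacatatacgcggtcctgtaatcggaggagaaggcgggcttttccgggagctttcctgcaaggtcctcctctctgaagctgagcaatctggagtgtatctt
The last 2 come from clusters whose median log2 fold changes had opposite signs. They are Zfp760 on chromosome 17 (chr17:21707491-21707790, plus strand), which fell, and Zfp566 on chromosome 7 (chr7:30090461-30090760, minus strand), which rose.
Zfp760: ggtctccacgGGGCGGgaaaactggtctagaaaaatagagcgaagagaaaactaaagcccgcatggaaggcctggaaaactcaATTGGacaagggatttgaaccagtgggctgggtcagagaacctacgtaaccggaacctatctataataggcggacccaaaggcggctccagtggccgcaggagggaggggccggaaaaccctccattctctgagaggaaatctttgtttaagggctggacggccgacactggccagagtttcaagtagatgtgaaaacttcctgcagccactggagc
Zfp566: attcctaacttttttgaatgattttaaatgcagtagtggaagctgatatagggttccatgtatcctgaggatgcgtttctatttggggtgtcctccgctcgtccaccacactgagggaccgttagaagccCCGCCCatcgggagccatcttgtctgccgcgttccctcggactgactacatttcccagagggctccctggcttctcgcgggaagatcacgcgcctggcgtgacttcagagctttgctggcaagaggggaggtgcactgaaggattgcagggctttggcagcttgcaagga

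The largest rise was at the promoter of Zfp119b, a zinc finger gene on chromosome 17. Its region (55949410 to 55949820, mm10, covering the TSS) had signals of 37, 29 and 28 with the GFP guide and 86, 80 and 101 with the Actg1 guide. Every Actg1 guide library lay above every GFP guide library, and the mean rose 2.92-fold (log2 change 1.51 with SE 0.169, limma adjusted p = 1.37e-09). Zfp119b was the weakest promoter of its cluster. A second region of the gene, 4228 bp from the TSS, was far stronger, with 390, 399 and 411 against 426, 449 and 413, and did not pass (log2 fold change 0.09, limma adjusted p = 0.29). The adjacent promoter of Zfp959 had 436, 414 and 427 against 381, 377 and 366 and fell by 0.18 on the log2 scale (limma adjusted p = 0.0263). That of Zfp119a had 407, 418 and 418 against 395, 414 and 424, with overlapping groups, and did not pass (-0.02, limma adjusted p = 0.879). Since the windows of Zfp119a and Zfp959 are nearly identical, reads could be split between them. The Zfp959 call ended when GFP guide replicate 1, GFP guide replicate 3 or Actg1 guide replicate 3 was left out (limma adjusted p = 0.0603, 0.143 and 0.063) and under cyclic loess scaling (0.0546).

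The next rises were less than 1.5-fold. Zfp867, on chromosome 11, had 191, 180 and 144 with the GFP guide and 243, 210 and 249 with the Actg1 guide. The groups did not overlap and the log2 fold change was 0.51 (SE 0.102, limma adjusted p = 7.53e-05). Zfp84, on chromosome 7, had 105, 129 and 111 against 162, 168 and 116, where Actg1 guide replicate 3 lay within the GFP guide range (log2 fold change 0.36, limma adjusted p = 0.0183). Its neighbour Zfp566 had 235, 245 and 190 against 270, 293 and 256 (log2 fold change 0.35, SE 0.0921, limma adjusted p = 0.00196), without overlap. Zfp563, on chromosome 17, had 330, 324 and 285 against 392, 361 and 397 (log2 fold change 0.33, SE 0.0757, limma adjusted p = 0.000528). These 2 genes stood in different clusters whose medians were both above 0.

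Zfp90, whose product carries a KRAB domain, had 396, 383 and 369 against 461, 460 and 446. This was 1.2-fold higher with tight groups (log2 fold change 0.26, limma adjusted p = 0.00126). Zfp664 had 418, 399 and 368 against 463, 489 and 442 (0.26, limma adjusted p = 0.00204). In the RefSeq table the start of Ccdc92 lies 470 bp from that of Zfp664 on the other strand, so the region may serve both. The remaining rises were Zfp251 (log2 fold change 0.26), Zfp646 (0.22), Zfp180 (0.21), Zfp949 (0.17) and Zfp81 (0.17), with limma adjusted p = 0.0191 to 0.0453. Zfp251 overlapped between groups, with 160 in GFP guide replicate 2 and 160 in Actg1 guide replicate 1. The calls of Zfp84 and Zfp251 ended without GFP guide replicate 1 or without Actg1 guide replicate 1 or 2, and that of Zfp251 also without Actg1 guide replicate 3. Zfp180 and Zfp949 lost theirs when GFP guide replicate 1, or Actg1 guide replicate 3, was left out, Zfp949 also without Actg1 guide replicate 2, and Zfp646 and Zfp81 without Actg1 guide replicate 1. Leaving out GFP guide replicate 2, or Actg1 guide replicate 3, ended the call of Zfp81 too. Over these settings their limma adjusted p ran from 0.0615 to 0.228.

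**Figure D2:**
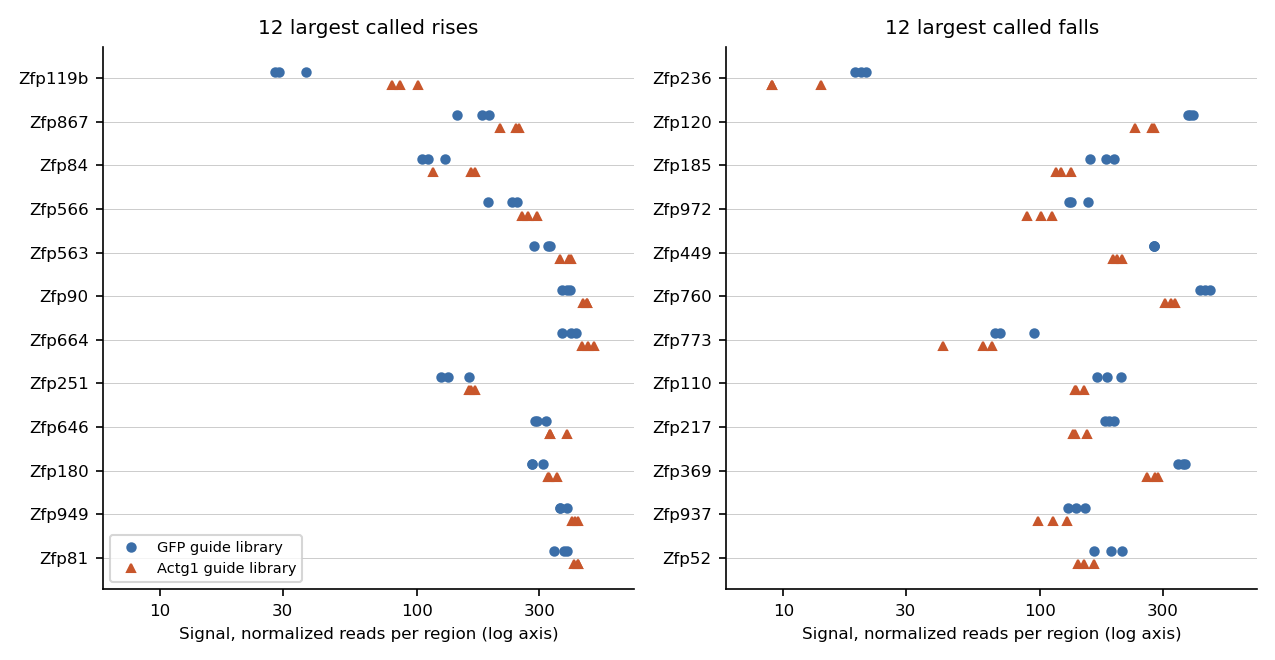
Signal per region (horizontal log axis) in each of the 6 libraries for the 12 largest called rises (left) and falls (right); circles are GFP guide libraries, triangles Actg1 guide libraries. Zfp119b shows the widest gap, from 28 to 37 against 80 to 101, while Zfp84 and Zfp251 on the left and Zfp52 on the right have groups that touch.

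The largest falls by log2 fold change began with Zfp236, at a region on chromosome 18 with very low signal, 20, 21 and 19 against 14, 9 and 9 (log2 fold change -0.86, SE 0.349, limma adjusted p = 0.0446). This region lay 900 bp from the TSS, and a stronger one 1271 bp away had 60, 77 and 90 against 56, 65 and 70 and did not pass (-0.30, limma adjusted p = 0.123). The Zfp236 call ended when any library but Actg1 guide replicate 1 was left out. Without GFP guide replicate 1 its limma adjusted p was 0.0537.

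Among stronger promoters, Zfp120 fell most. Its region on chromosome 2 (150136382 to 150137032) had 384, 376 and 396 with the GFP guide and 274, 279 and 235 with the Actg1 guide, 1.48-fold lower without overlap (log2 change -0.56 with SE 0.0808, limma adjusted p = 2.85e-07). Zfp185, on the X chromosome, had 156, 195 and 181 against 132, 115 and 121 (-0.54, SE 0.11, limma adjusted p = 0.000107). Its product differs from the rest of the family, being a LIM-domain protein that associates with the actin cytoskeleton. A second Zfp185 region, 3266 bp from the TSS, also fell, from 86, 77 and 75 to 37, 43 and 33 (-1.04, limma adjusted p = 8.71e-06). Both regions of this gene thus had lower signal in all Actg1 guide libraries.

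Zfp449, on the X chromosome, had 278, 277 and 279 against 199, 193 and 209 (log2 fold change -0.47, limma adjusted p = 2.66e-05). Zfp760 had 458, 420 and 439 against 337, 306 and 324 (-0.45, SE 0.0717, limma adjusted p = 2.58e-06). The groups were well apart in both. Zfp369 and Zfp110 encode related proteins known as interactors of the p75 neurotrophin receptor. Zfp369 had 361, 346 and 368 against 280, 289 and 261 (-0.38, limma adjusted p = 9.65e-05), and Zfp110 had 206, 167 and 183 against 148, 138 and 137 (-0.39, limma adjusted p = 0.00236). Neither overlapped between groups. Zfp972, with 132, 130 and 154 against 89, 111 and 101, had -0.50 (limma adjusted p = 0.00115).

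The others of the 12 largest falls were Zfp773 (log2 fold change -0.44, limma adjusted p = 0.0414), Zfp217 (-0.39), Zfp937 (-0.34) and Zfp52 (-0.32). Without GFP guide replicate 2 the calls of Zfp773 and Zfp52 ended (limma adjusted p = 0.157 and 0.101), and without Actg1 guide replicate 1 that of Zfp937 (0.148). Actg1 guide replicate 2 or 3 ended that of Zfp773 when left out, and Actg1 guide replicate 3 that of Zfp937. For the other 30 falls the log2 fold change ran from -0.32 to -0.13. Among them were Zfp202 (-0.25), a SCAN-domain repressor of lipid genes, Zfp69 (-0.26), a gene tied to fat storage and diabetes in obese mice, and Zfp277 (-0.13), which binds Polycomb proteins at the Ink4a/Arf locus of fibroblasts. These 3 were named after their values had been seen. Zfp202 had 507, 484 and 547 against 437, 431 and 445, without overlap. Zfp69 had 332, 335 and 350 against 259, 266 and 335, where Actg1 guide replicate 3 reached the GFP guide range. The call of Zfp69 ended without Actg1 guide replicate 1 or 2, and that of Zfp277 without any of GFP guide replicate 2, Actg1 guide replicate 1 or Actg1 guide replicate 2 and under both other scalings.

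The strongest and weakest members are described for scale. Zfp91, an E3 ubiquitin ligase, had the highest mean signal, with 1162, 1196 and 1237 against 1244, 1205 and 1236 (log2 fold change 0.02, limma adjusted p = 0.679). Zfp869 had 1001, 995 and 976 against 997, 955 and 1016 (0.00, limma adjusted p = 0.966). Neither separated the groups. Zfp78, next by signal, had 970, 872 and 957 against 882, 823 and 830 and fell with overlapping groups (-0.15, limma adjusted p = 0.0108). That call ended when GFP guide replicate 1, or Actg1 guide replicate 3, was left out (limma adjusted p = 0.081 and 0.0546). At the other end, Zfp236 was followed by Zfp469, with 17, 21 and 15 against 18, 15 and 14, and Zfp882, with 14, 10 and 17 against 23, 16 and 22. At such levels a difference would have to be large to be detected, and neither passed (limma adjusted p = 0.812 and 0.233).

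Genes of the family with roles known from other work were few under the Zfp spelling, 7 of 34. Of the genes that silence retroelements and imprints, Zfp809, which silences murine leukaemia virus in stem cells, had 367, 363 and 337 against 402, 431 and 352 and did not pass (log2 fold change 0.17, limma adjusted p = 0.076). It passed under both other scalings (limma adjusted p = 0.0361 and 0.0472) and without Actg1 guide replicate 3 (0.0189). Zfp961 did not pass either (-0.12, limma adjusted p = 0.188). Both overlapped between groups. Zfp217, a regulator of fat cell differentiation and the mouse form of a breast cancer oncogene, fell from 195, 186 and 179 to 153, 137 and 134, 1.31-fold, without overlap (limma adjusted p = 0.00286).

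Among RNA-related members, Zfp326, part of a complex that links RNA polymerase II to splicing, fell from 495, 522 and 554 to 439, 456 and 463 (log2 fold change -0.23, limma adjusted p = 0.00331). The promoters of Zfp106 and Zfp638, both RNA-binding proteins, did not pass (0.11 for each, limma adjusted p = 0.527 and 0.461). A second Zfp638 region, 1164 bp from the TSS, rose from 76, 87 and 76 to 148, 146 and 153 (0.91, limma adjusted p = 4.75e-08), so the libraries separated there and not at the promoter itself. Zfp384, a nuclear matrix factor that regulates collagen and matrix metalloproteinase genes, fell from 707, 702 and 694 to 648, 617 and 628 (-0.15, limma adjusted p = 0.0262). The Zfp384 call ended without Actg1 guide replicate 2 or 3 (limma adjusted p = 0.0625 and 0.0586) and under cyclic loess scaling (0.0831). A further 15 genes of these role lists appear in the table as Znf. Of these 15, 1 was higher, Znf593 (limma adjusted p = 0.039). Lower were 3, Znf281, Znf335 and Znf445 (limma adjusted p = 0.00146, 0.00512 and 0.00371). Over all protein-coding promoters 12.4% were higher and 18.9% lower.

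The corepressor genes through which KRAB proteins act are not members, and 15 of the 20 listed had a promoter region. Of these 4 rose and 3 fell, with a median log2 fold change of -0.02, where 12.4% of protein-coding promoters were higher and 18.9% lower. Chd4, a chromatin remodeller of the NuRD complex, rose from 398, 354 and 401 to 482, 470 and 496 (log2 fold change 0.31, limma adjusted p = 0.000153). Its relative Chd3 rose by 0.63 (limma adjusted p = 0.000109). The Chd3 region, with a mean signal of 96.5, was centred 848 bp from the TSS and did not cover it. Setdb1, the histone methyltransferase that Trim28 recruits, had 118, 115 and 87 against 128, 132 and 127 (0.35, limma adjusted p = 0.0205). Cbx5, an HP1 protein, rose by 0.14 (limma adjusted p = 0.00404). Hdac2, Dnmt3b and Morc3 had -0.21, -0.48 and -0.20 (limma adjusted p = 0.00932, 0.00819 and 0.0145). Without GFP guide replicate 3 the calls of Chd3 and Chd4 held and the other 5 ended. The call of Setdb1 also ended without any 1 of the Actg1 guide libraries (limma adjusted p = 0.0563 to 0.0724), and that of Morc3 without Actg1 guide replicate 2 (0.0794). Trim28 was not analysed here.

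The members were next set out by chromosome. A cluster was at least 3 members with at most 1 Mb between consecutive ones. There were 20 such clusters on 10 chromosomes with 119 members, and the other 69 members stood outside. In clusters 8 promoters rose and 20 fell, together 23.5%, and outside them 4 rose and 22 fell, together 37.7%, where 31.3% of protein-coding promoters were called. The median log2 fold changes were -0.05 and -0.06. Without GFP guide replicate 3, 5 and 4 calls were left in and outside clusters, and without Actg1 guide replicate 3 there were 18 and 26.

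Of the 13 clusters with a called member, 4 had a single call, which can point only one way. Of the 9 with more, 8 had calls in 1 direction and 1, that of Zfp119b, in both. Of 108 pairs of consecutive members within 1 Mb, 74 or 68.5% had log2 fold changes of the same sign. For consecutive protein-coding promoters within 1 Mb this was 5388 of 8742 pairs or 61.6%, so same-sided neighbours were common at large. Where both members of a pair were called, 10 of 11 pairs had the same direction, against 791 of 957 pairs of protein-coding promoters. The median distance within pairs was 54.6 kb for the members and 67.5 kb for all.

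**Figure D3:**
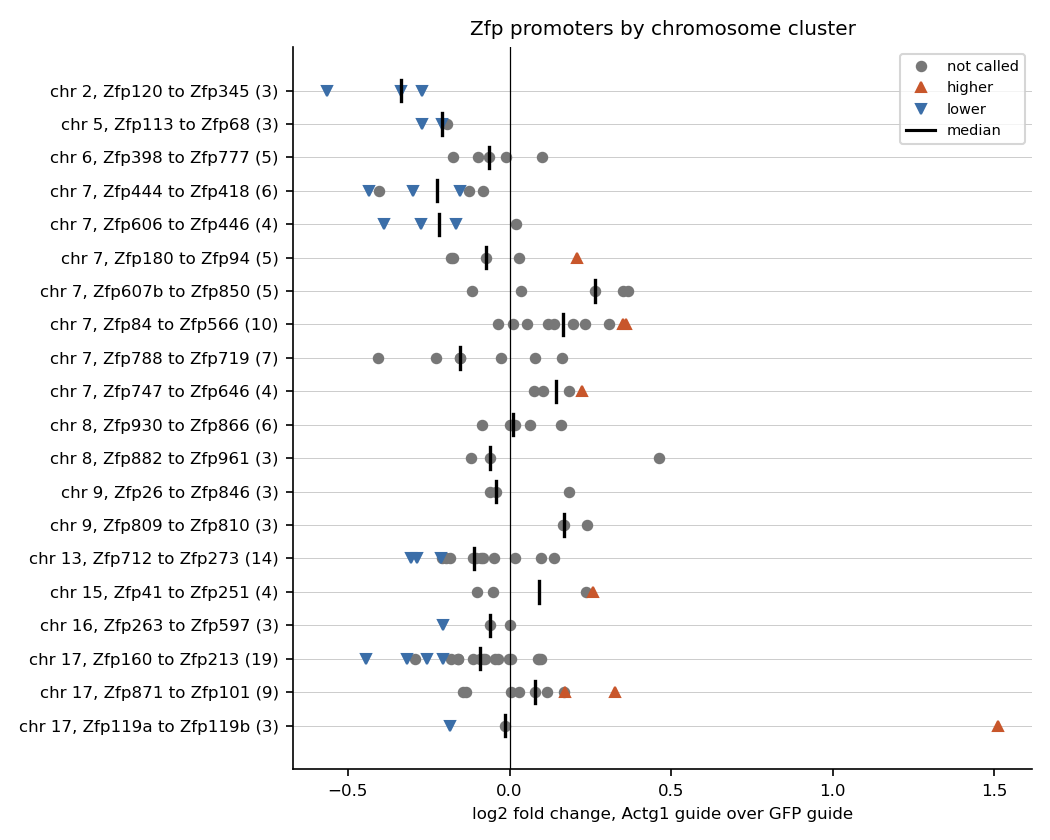
Log2 fold change (horizontal axis) of each Zfp promoter in the 20 chromosome clusters, named by their first and last member with the number of members; triangles are called promoters and black bars cluster medians. Medians run from -0.34 for the chromosome 2 cluster to 0.26 for the cluster of Zfp607b to Zfp850 on chromosome 7.

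Chromosome 7 held 7 clusters, and their medians differed in sign. In the proximal one (6171897 to 7171837, Zfp444 to Zfp418) all 6 members had a log2 fold change below 0, with a median of -0.22. Its summed signal was 1969, 1961 and 1989 with the GFP guide and 1819, 1647 and 1768 with the Actg1 guide. Zfp28 fell from 333, 368 and 367 to 336, 242 and 305 with overlapping groups (-0.30, limma adjusted p = 0.00619), and Zfp78 and Zfp773 fell as given above. Without Actg1 guide replicate 2 the median of this cluster was -0.15. The call of Zfp28 ended without Actg1 guide replicate 2 (limma adjusted p = 0.11), the library with the lowest value. The other 6 tested regions in this stretch had a median of 0.02 and 0 calls. Here and below, other regions are all that are not the promoter region of a member. Some of them belong to Zfp or Znf genes as well.

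The next cluster (12478111 to 12978434, Zfp606 to Zfp446) had 3 falls among 4 members and a median of -0.22. Over all protein-coding promoters 18.9% were lower. Besides Zfp110, Zfp324 fell from 182, 178 and 219 to 166, 172 and 155 (log2 fold change -0.27, limma adjusted p = 0.0294) and Zfp446 from 469, 482 and 474 to 436, 434 and 400 (-0.17, limma adjusted p = 0.0394). Of 11 other regions in the stretch, 3 were higher and 1 lower. Zfp324 lost its call without Actg1 guide replicate 1 or 3 (limma adjusted p = 0.0767 and 0.11), and Zfp446 when GFP guide replicate 2, or Actg1 guide replicate 3, was left out and under both other scalings (0.0622 to 0.137).

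Farther along chromosome 7 the sign turned. In the cluster of Zfp84 to Zfp566 (29768029 to 30090898), 9 of 10 members had a log2 fold change above 0, with a median of 0.17, and the first and the last member were called. The summed signal was 1192, 1238 and 1143 with the GFP guide and 1336, 1409 and 1270 with the Actg1 guide, without overlap. The 8 others, among them Zfp27 (0.31) and Zfp14 (0.23), did not pass. Over all protein-coding promoters 12.4% were higher. Of the 7 regions in this stretch that were not members, 2 were higher and 0 lower, with a median of 0.01. In the cluster of Zfp607b to Zfp850 the median was 0.26 and 0 of 5 were called, with Zfp850 at 59, 61 and 50 against 67, 73 and 73 (0.37, limma adjusted p = 0.0607) and Zfp780b at 54, 54 and 63 against 79, 74 and 71 (0.35, limma adjusted p = 0.0666). In these 2 genes the groups did not overlap, but signals were low. Without GFP guide replicate 3 the median of this cluster was 0.09. Of the 4 other regions in that stretch 3 were higher. These included regions of Zfp626 (0.39) and Zfp607a (0.29), genes of the name pattern without a region within 1000 bp. A farther region of the member Zfp974 was also among the 4 and did not pass (0.63, limma adjusted p = 0.237).

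The remaining chromosome 7 clusters were mixed. That of Zfp180 to Zfp94 had Zfp180 higher, from 281, 311 and 282 to 325, 326 and 351, and a median of -0.07. That of Zfp788 to Zfp719 had 0 calls among 7 and a median of -0.15, with Zfp976 at 78, 71 and 68 against 50, 65 and 47 (-0.41, limma adjusted p = 0.0502). That of Zfp747 to Zfp646 had all 4 members above 0 and a median of 0.14. There Zfp646 rose from 318, 295 and 288 to 383, 331 and 330 (0.22, limma adjusted p = 0.0191). The 24 other regions in that stretch had 5 higher and 2 lower, with 15 above 0 and a median of 0.09. The median of the Zfp180 cluster was -0.02 without Actg1 guide replicate 2 and -0.21 without GFP guide replicate 3. That of the Zfp788 cluster was -0.09 without GFP guide replicate 3, and that of the Zfp747 cluster 0.09 without Actg1 guide replicate 1. The start of Zfp668 lies 579 bp from that of Zfp646 on the other strand.

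Chromosome 17 held the largest cluster, 19 members from Zfp160 to Zfp213 (21008604 to 23564767). Here 4 or 21.1% fell and 0 rose, where 18.9% of protein-coding promoters were lower and 12.4% higher. Of the 19 members, 15 had a log2 fold change below 0, and the median was -0.09. The summed signal was 6483, 6620 and 6541 against 6151, 6109 and 6128, lower in each Actg1 guide library. Without Actg1 guide replicate 1 the median was -0.15. The nearest promoter regions of the neighbours Zfp51, Zfp53 and Zfp52 were all called lower. Zfp51 had 445, 504 and 449 against 390, 415 and 395 (-0.21, limma adjusted p = 0.0114) and Zfp53 had 464, 459 and 450 against 374, 368 and 403 (-0.26, limma adjusted p = 0.00225). Zfp52 had 162, 208 and 189 against 148, 162 and 140 with groups that met (-0.32, limma adjusted p = 0.0115). A second Zfp52 region, 758 bp from the TSS, had 166, 171 and 184 against 176, 189 and 175 (0.03, limma adjusted p = 0.832). A stronger Zfp52 region 3143 bp from the TSS did not pass either (0.03, limma adjusted p = 0.77). Next to Zfp51, Zfp54 had 241, 255 and 256 against 285, 233 and 291 (0.09, limma adjusted p = 0.439), so the run of falls did not include it. Of 33 other regions in the interval, 6 were higher and 7 lower, with a median of 0.21. The call of Zfp51 ended without GFP guide replicate 2 (limma adjusted p = 0.0585).

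A second chromosome 17 cluster, Zfp871 to Zfp101 (32787765 to 33394997), leaned the other way. In it Zfp563 and Zfp81 rose, where 12.4% of protein-coding promoters were higher. Of its 9 members, 7 had a log2 fold change above 0, and the median was 0.08. That median ran from 0.03 without Actg1 guide replicate 1 to 0.12 without GFP guide replicate 2, and was 0.05 without GFP guide replicate 1. Zfp81 had 376, 343 and 386 against 426, 408 and 424 (0.17, limma adjusted p = 0.0427), without overlap. The nearby Zfp472 had 374, 360 and 339 against 423, 388 and 379 (0.17, limma adjusted p = 0.0581) and Zfp952 had 118, 139 and 124 against 116, 119 and 108 (-0.14, limma adjusted p = 0.352). The 3 other regions of the interval had 0 calls.

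**Figure D4:**
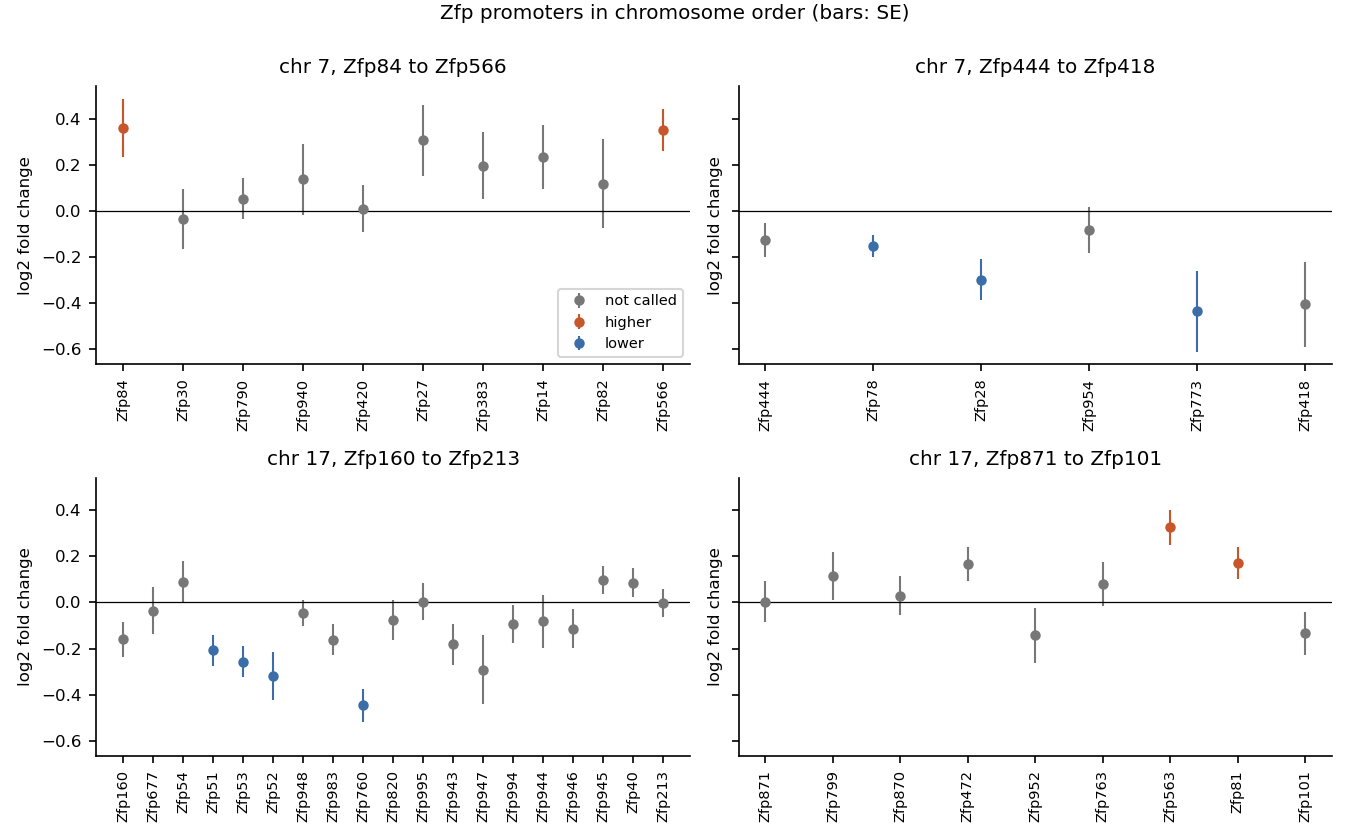
Log2 fold change with its SE (vertical axes, shared scale) of the Zfp promoters in 4 clusters, in chromosome order from left to right; orange marks promoters called higher and blue those called lower. On chromosome 7, 9 of 10 members lie above 0 for Zfp84 to Zfp566 and all 6 below 0 for Zfp444 to Zfp418, and on chromosome 17 the calls are all lower for Zfp160 to Zfp213 and all higher for Zfp871 to Zfp101.

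On chromosome 13 the cluster of Zfp712 to Zfp273 (67060225 to 67814722) had 14 members, of which 3 or 21.4% fell and 0 rose, with a median of -0.11. Over all protein-coding promoters 18.9% were lower and 12.4% higher. The 14 other regions in the interval had 2 higher and 2 lower, with a median of -0.02. Zfp712 fell from 519, 536 and 536 to 475, 439 and 464 (-0.21, limma adjusted p = 0.00597), Zfp748 from 241, 267 and 250 to 227, 199 and 195 (-0.29, limma adjusted p = 0.00994), and Zfp85 from 216, 195 and 201 to 181, 162 and 151 (-0.31, limma adjusted p = 0.0126). None of these 3 overlapped between groups. The Zfp748 region was centred 847 bp from the TSS and did not cover it. In the RefSeq table the start of 9430065F17Rik lies 596 bp from that of Zfp748 on the other strand. The near relatives Zfp874a and Zfp874b, whose promoter windows were 80.3% identical, had -0.11 and -0.18 and did not pass. Without Actg1 guide replicate 3 the calls of Zfp748 and Zfp85 ended (limma adjusted p = 0.0507 and 0.0626).

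For the clusters on chromosomes 2 and 5, the share to set beside the falls is 18.9% lower over all protein-coding promoters. On chromosome 2 all 3 clustered members fell, Zfp120, Zfp937 and Zfp345. Zfp937 had 128, 138 and 150 against 98, 127 and 112 (-0.34, limma adjusted p = 0.0246) and Zfp345 had 193, 187 and 179 against 155, 164 and 140 (-0.27, limma adjusted p = 0.0327). The sums were 705, 701 and 725 against 527, 570 and 487. Of the 4 other regions in this stretch, 1 was lower and 0 higher, and their median log2 fold change was -0.19. On chromosome 5 Zfp157 and Zfp68 fell (-0.27 and -0.21, limma adjusted p = 0.00881 and 0.0355) and Zfp113 had -0.19 (limma adjusted p = 0.107), so the median of that cluster was -0.21. The 12 other regions in that stretch had 2 higher and 1 lower, with a median of 0.04. The Zfp345 call ended when GFP guide replicate 1, Actg1 guide replicate 1 or Actg1 guide replicate 3 was left out (limma adjusted p = 0.0534 to 0.112). That of Zfp68 ended when GFP guide replicate 2, Actg1 guide replicate 1 or Actg1 guide replicate 3 was left out and under both other scalings (0.0555 to 0.0759).

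The rest of the clusters gave few calls. On chromosome 9 the cluster of Zfp809, Zfp599 and Zfp810 had all 3 above 0 (median 0.17) and 0 calls. The 6 members from Zfp930 to Zfp866 on chromosome 8 had a median of 0.01 and 0 calls, and their summed signal of 2843, 2850 and 2844 against 2948, 2826 and 2892 overlapped between groups. Zfp174, a SCAN-domain gene on chromosome 16, fell from 512, 511 and 513 to 431, 462 and 440 (-0.21, limma adjusted p = 0.00819). The clusters on chromosome 6 and the others on chromosomes 8 and 9 had 0 calls. Over the 14 alternative fits, the median kept its sign in 15 of the 20 clusters. The 5 in which it did not were those of Zfp119b, Zfp251, Zfp930 to Zfp866, Zfp882 to Zfp961 and Zfp26 to Zfp846.

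The promoter sequences were compared with those of other genes in windows of 300 bases, which were found for 153 of the members and 6826 other protein-coding genes. The Zfp windows had a median of 54% G+C (quartiles 50% and 58%) and a CpG observed over expected ratio of 0.619, against 62% and 0.795 for the others. A ratio of at least 0.6 was found in 52.3% of Zfp windows and 79.3% of the others. These promoters were thus less rich in CpG than promoters at large. Of the 9 motifs searched on both strands, the GC box GGGCGG, bound by SP and KLF factors, was in 39.2% of Zfp windows against 69.8% of the others, and the CCAAT box, bound by NF-Y, in 56.2% against 39.4%. The palindromic NRF1 motif was in 5.23% against 2.3%, and the ETS motif CCGGAAGT in 11.8% against 8.95%.

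The remaining motifs were rarer. The CRE TGACGTCA was in 3.92% of Zfp windows against 3.49% of the others, the AP-1 motif TGANTCA in 2.61% against 5.01%, the YY1 motif in 2.61% against 2.29% and the E-box CACGTG in 8.5% against 10.6%. The palindrome bound by BANP was in 0 Zfp windows and in 85 of the 6826 others. Over all 32851 windows of the table, from every kind of gene, the shares were 35.7% for the GC box, 37.4% for CCAAT, 0.971% for NRF1, 3.89% for ETS, 1.79% for CRE, 7.81% for AP-1, 0.852% for YY1, 7.15% for the E-box and 0.466% for the palindrome. The motifs do not contain one another. Of the windows shown above, that of Zfp119b held 3 matches to CCAAT on either strand and 0 to the other 8 motifs.

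**Figure D5:**
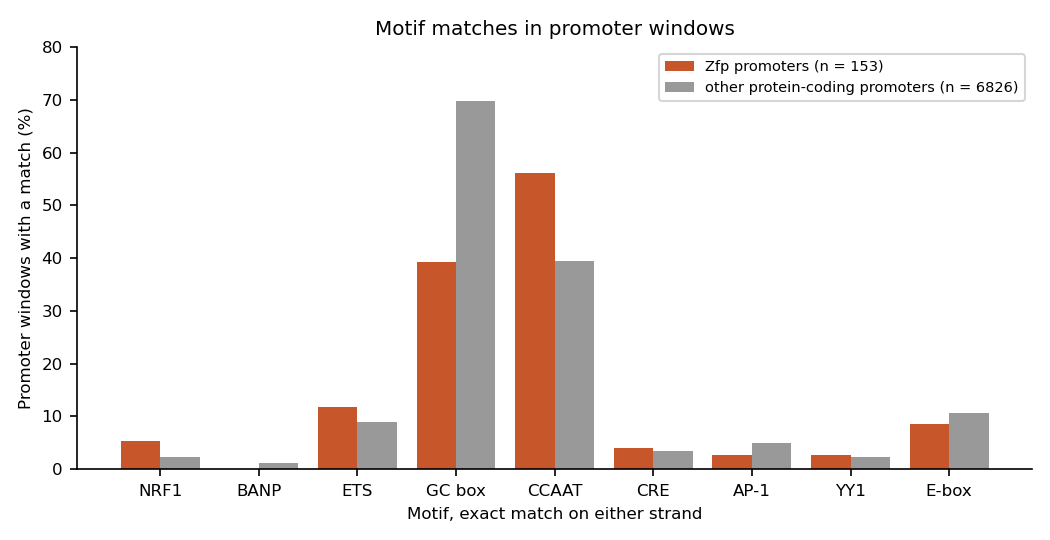
Share of promoter windows with at least 1 exact match (vertical axis, percent) for each of the 9 motifs (horizontal axis), in Zfp promoters (orange, n = 153) and other protein-coding promoters (grey, n = 6826). The GC box is in 39.2% of Zfp windows against 69.8%, and the CCAAT box in 56.2% against 39.4%.

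Motif matches and base composition were then set beside the changes, as a description. Members with a CCAAT box had 5 rises and 23 falls among 86 windows and a median log2 fold change of -0.07, and those without it 4 rises and 12 falls among 67 and a median of -0.01. Members with a GC box had 4 rises and 16 falls among 60 and a median of -0.08. Those without it had 5 rises and 19 falls among 93 and a median of -0.04. Over all protein-coding promoters 12.4% were higher and 18.9% lower. Calls by motif were not counted for other genes, so it was not tested whether these counts are particular to the members. The 8 members with the NRF1 motif and the 6 with the CRE had 0 calls, in sets too small to read against the 28.7% of all members that were called. By G+C, 5 of 37 Zfp windows under 50% belonged to promoters that rose and 4 to ones that fell, against 3 and 20 of 87 windows at 50% to 60% and 1 and 11 of 29 at 60% or more. For the other genes the shares higher were 14.3%, 14.3% and 11.6% and the shares lower 15.1%, 16.1% and 21.1% in the same classes. Falls were thus more frequent at high G+C in both sets.

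A promoter region can serve 2 genes. For 25 of the 188 members the RefSeq promoter table has the start of another gene on the opposite strand within 1000 bp, such as Mrpl50 at 93 bp from Zfp189 and Dock4 at 151 bp from Zfp277. Of these 25, 3 or 12% were higher and 6 or 24% lower, and of the other 163, 5.52% and 22.1%, where 12.4% and 18.9% of all protein-coding promoters were. Zfp189 had 347, 381 and 371 against 293, 323 and 272 (log2 fold change -0.31, limma adjusted p = 0.00114), and the signal cannot be split between it and Mrpl50.

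Regions covered the TSS in 181 of the 188 members, with a median length of 799 bp and a median distance of 115.5 bp from region centre to TSS. In 5 genes a second region lay within 1000 bp. Of these second regions, that of Zfp39, 774 bp from the TSS, rose from 31, 26 and 32 to 62, 34 and 44 (log2 fold change 0.57, limma adjusted p = 0.0323), while the nearer one had 337, 335 and 346 against 333, 343 and 346. That of Zfp94 was too low to be tested and the other 3 did not pass. All 188 members passed the filter on low signal. A further 11 genes of the same name pattern had a region only beyond 1000 bp. Of these, Zfp626, Zfp229, Zfp607a and Zfp105 were higher, Zfp651 and Zfp558 lower and 5 not called, where 41.3% of all regions were called. The nearest was that of Zfp651 at 1282 bp, which had 830, 800 and 800 against 586, 576 and 624 (-0.44, limma adjusted p = 1.66e-08). The farthest included were Zfp469 at 942 bp and Zfp236 at 900 bp, given above.

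Farther regions of member genes did not always follow the promoter. Zfp949, whose promoter had 362, 383 and 360 against 401, 412 and 426, had a region 5011 bp away that fell from 51, 29 and 43 to 23, 18 and 17 (log2 fold change -1.07, limma adjusted p = 0.000487). Zfp184, whose promoter did not pass (0.13, limma adjusted p = 0.163), had one 4342 bp away that rose from 356, 397 and 376 to 488, 457 and 456 (0.31, limma adjusted p = 0.000197). Zfp251 had a second rise 1066 bp from its TSS, from 25, 25 and 22 to 42, 31 and 34 (0.57, limma adjusted p = 0.0433).

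Other families of zinc finger genes are given for scale, beside 12.4% higher and 18.9% lower over all protein-coding promoters, with no test of a difference between families. Zbtb genes, which pair zinc fingers with a BTB domain, had 2 higher (6.45%) and 5 lower (16.1%) of 31 and a median of -0.02. Zscan and Zkscan genes, with a SCAN domain, had 1 (7.69%) and 2 (15.4%) of 13 and a median of -0.11. Klf and Sp genes, which bind the GC box, had 1 (6.25%) and 9 (56.2%) of 16 tested and a median of -0.13. The promoters named Znf had 9 higher and 9 lower of 88, 10.2% each, and a median of -0.01. With them, the 276 promoters under either spelling had 21 higher (7.61%) and 51 lower (18.5%) and a median of -0.03.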

How the data were processed

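The submitters' processing notes name mm10 as the build. They list DESeq, DESeq2 1.36.0, featureCounts, Trimmomatic 0.39, Picard 3.0.0 and STAR 2.7.10a without saying what each did. Not given in the sources used here: peak caller, Tn5 offset, normalization formula and annotation version. In the deposited table the authors give 1 score per region and library, called signal here: a read count normalized between libraries and rounded to whole numbers, a reading that rests on the values. Uneven use of small whole numbers gave the signal per read and so the estimated reads. Limma 3.58.1 (R 4.3.3) with a mean-variance trend was fitted to log2(signal + 1) without covariates. The fit took in 61327 regions with a signal of 10 or more in 3 or more of the 6 libraries. Adjusted p-values are Benjamini-Hochberg values over all tested regions. Regions were matched to genes by the deposited table, and all 188 member names lie at the place of the same RefSeq symbol. Promoter windows are from RefSeq (GRCm38.p6), aligned with Biopython 1.88. The members, lists and tests were chosen with earlier results of these data known. Named genes are the 12 largest called changes each way, the 3 strongest and 3 weakest members, called members of clusters of at least 4 and the role lists. Planned counts of protein features were not made. Same-numbered libraries were not paired by any label, so no block was used.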

Additional observations from a re-analysis of the deposited data

How the results depend on the processing

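Of 43 named genes, Zfp869 alone changed direction under any of 14 alternative fits (Zfp236, Zfp469 and Zfp882 had no value at a filter of 50). Its log2 fold change near 0 was -0.0023 with 6 separate libraries, block or not. With single libraries left out it was lowest at -0.016 (Actg1 guide replicate 3) and highest at 0.028 (Actg1 guide replicate 2), with -0.013 for GFP guide replicate 3 and -0.0028 for Actg1 guide replicate 1. When libraries were left out one at a time, promoters called higher numbered 1 to 13, called lower 8 to 39, called in clusters 5 to 26 and called outside clusters 4 to 26, each lowest without GFP guide replicate 3. That fit alone left 1 GFP guide sample, and the cause was not tested further. Other pseudocounts, filters and scalings, a window of 500 bp, all promoter regions of a gene, and cluster gaps of 0.5 or 2 Mb gave 12 to 17 higher, 38 to 44 lower, 27 to 32 in clusters and 23 to 27 outside. With 6 separate libraries 16 were higher and 48 lower. Adding the replicate number as a replicate block gave 18 higher and 52 lower, 40 in clusters and 30 outside. Same-numbered libraries deviated together by r = 0.0138 to 0.0252, each best with its own number. These values are very small and were not tested, so they do not establish a pairing, and no label gives one. Depth limits the weakest members, where signals near 15 rest on few reads.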
